A study of Mus musculus with 12 samples.

Results

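The genes described here are 40 genes of the extracellular matrix and of the contractile cytoskeleton of stromal cells. They were picked by name, with earlier results of these data known, as a readout of RNA from OP9 cells. OP9 is the mouse stromal line that the labels' protocols name for the differentiation cultures. A gene with several probe sets was read from the one whose log2 intensity averaged highest over all 12 arrays. Of the 40 genes, 39 had a named probe set, among 18820 named genes in all, and Fbn1 was not analysed here.

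The arrays measured RNA of EML1, a blood progenitor line made by infecting bone marrow cells from BDF1 males with a retrovirus, LRARalpha403SN, so that all groups carry that virus as well as the lentiviral vector pWPI. There were 6 groups of 2 arrays. They were EML1 with TEL-AML1 cloned into pWPI, untreated and at day 5 and day 7 of treatment with IL7 and FLT3L, and EML1 with the empty pWPI vector, untreated and at the same 2 times. TEL-AML1 is the leukaemia fusion of the ETV6 and RUNX1 genes. Per the labels' protocols, B-cell differentiation used 50000 EML1 cells laid on a confluent OP9 layer, with IL7 at 10 ng/ml, FLT3L at 80 ng/ml and β-mercaptoethanol at 50 μM. The titles of the treated samples name only the pair of cytokines, and OP9 is named in the growth protocol alone. The labels describe no OP9 layer for the untreated cells and no step that separates progenitors from stroma before lysis. OP9 and EML1 are both mouse cells, so a probe set cannot tell the transcripts of one from those of the other.

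Stromal cells of marrow are fibroblast-like. They secrete fibrillar collagens and fibronectin, cross-link them with lysyl oxidases, trim them with matrix metalloproteinases and pull on them through actin fibres that carry calponin, caldesmon and tropomyosin. They also secrete CXCL12, the chemokine that holds blood stem cells and early B-cell progenitors in their niche. OP9 was derived from the skull bone of newborn mice that lack the growth factor M-CSF, and is widely used as a feeder layer for lymphoid differentiation.

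Values are the deposited linear intensities, and no read depth applies to an array. Array medians lay between 68.1 and 72.9. Background was read from the probe sets of olfactory receptor genes, which blood and stromal cells are not known to use, and the 95th percentile of those 1006 probe sets lay between 54.3 and 60.2. Folds were taken on log2(intensity + 16), which understates the change of dim genes. Each was tested with limma on 12337 genes, at a Benjamini-Hochberg adjusted p of 0.05 over all of them. A fold given as at least was taken over the olfactory receptor line of the untreated arrays, without the added 16. The adjusted p beside it belongs to the limma test, not to that fold. Sparc, Fstl1, Lox, Pdgfra, Vcam1 and Cav1 had an untreated mean under the intensity filter of 60.1, and were tested only through their treated arrays. The labels do not say that the 2 arrays of a group came from separate cultures, so every p measures only how far these arrays spread, and that spread may be technical. In bulk RNA, fewer cells of a type and less RNA per cell cannot be told apart.

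The labelled cell type was checked against its markers. All 20 blood progenitor genes listed, among them Ptprc, Kit and Spi1, lay above background on each of the 12 arrays, with a summed intensity of 23540.0 to 27586 on the treated arrays and 25609 to 27026 on the untreated ones. Of all named genes, 61.9% lay above background on all 8 treated arrays and 63.4% on all 4 untreated ones. The treated arrays did not hold one amount of the matrix genes. The mean log2(intensity + 16) over the 39 genes, called the stroma level here, was 6.62 and 6.55 in untreated TEL-AML1 cells, 7.91 and 7.11 on day 5 and 6.67 and 7.22 on day 7, for replicates 1 and 2. It was 6.56 and 6.51 in untreated empty vector cells, 8.16 and 7.86 on day 5 and 6.87 and 7.60 on day 7. All 8 treated arrays lay above the highest untreated value of 6.62, from 6.67 on TEL-AML1 day 7 replicate 1 to 8.16 on empty vector day 5 replicate 1. Without the 26 genes that lay above background on all 4 untreated arrays, TEL-AML1 day 7 replicate 1 gave 6.03. That was under the 6.04 of untreated TEL-AML1 replicate 1, while the other treated arrays stayed above every untreated one. Replicates of a group stood far apart: on day 5 replicate 1 was the higher in both vectors, and on day 7 replicate 2 was.

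**Figure D1:**
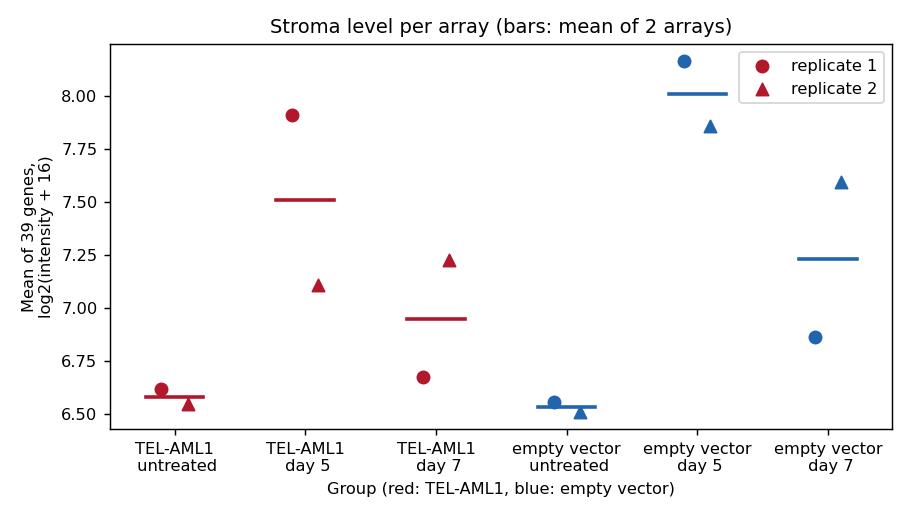
Stroma level, the mean log2(intensity + 16) of 39 matrix and contractile genes, on each of 12 arrays (circle, replicate 1; triangle, replicate 2; bar, mean of 2 arrays; red, TEL-AML1; blue, empty vector). The 4 untreated arrays sit between 6.51 and 6.62, and the 8 treated arrays between 6.67 and 8.16.

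Single genes were then set against the order of arrays by stroma level. That level is the mean of these same 39 genes, so the counts are a description and no independent support. Ranked by stroma level, the treated arrays ran from empty vector day 5 replicate 1 through TEL-AML1 day 5 replicate 1, empty vector day 5 replicate 2, empty vector day 7 replicate 2, TEL-AML1 day 7 replicate 2, TEL-AML1 day 5 replicate 2 and empty vector day 7 replicate 1 to TEL-AML1 day 7 replicate 1. Each step of that order was kept by 23 to 35 of the 39 genes, the least by the step between TEL-AML1 day 5 replicate 1 and empty vector day 5 replicate 2. Within TEL-AML1, 37 of 39 genes were higher in replicate 1 on day 5, with a median log2 difference of 0.68, and 36 of 39 were higher in replicate 2 on day 7, with a median difference of replicate 1 minus replicate 2 of -0.31. Within the empty vector, 34 of 39 were higher in replicate 1 on day 5, with a median of 0.26, and 38 of 39 in replicate 2 on day 7, with a median of -0.55. In untreated cells the counts were nearly as one-sided but the differences small, with 32 of 39 higher in replicate 1 and a median of 0.075 for TEL-AML1, and 33 of 39 and 0.040 for the empty vector. Over all 18820 named genes the median absolute difference between the replicates of a treated group was 0.079 to 0.11. In the treated groups the median difference of the 39 genes was larger than this in size, and the tests below carry that spread in their error.

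**Figure D2:**
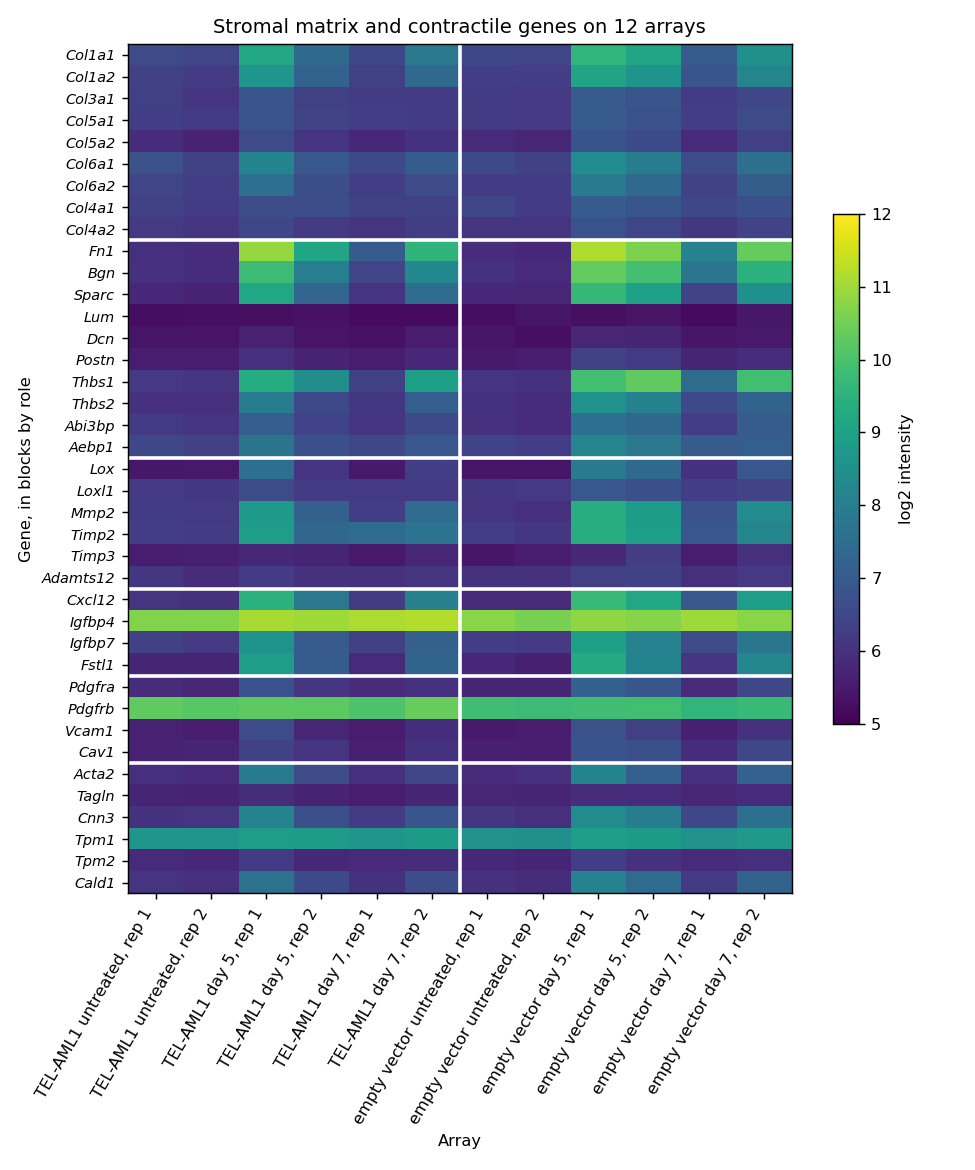
Log2 intensity (colour) of 39 matrix and contractile genes (down the page, in blocks by role) on 12 arrays (TEL-AML1 left, empty vector right). Fn1, Bgn, Sparc, Thbs1, Col1a1, Mmp2, Timp2 and Cxcl12 brighten and dim together over the treated arrays, whereas Igfbp4, Pdgfrb and Tpm1 are bright on all 12.

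The list held 9 collagen genes. Col1a1 and Col1a2 encode the chains of type I collagen, the main fibre of bone and skin. Col1a1 read 99.1 and 88.8 untreated, 571 and 172 on day 5 and 91.6 and 225 on day 7 in TEL-AML1 cells. With the empty vector the values were 91.4 and 88.0 untreated, 777 and 553 on day 5 and 130.1 and 363 on day 7. All treated empty vector arrays lay above both untreated ones, whereas TEL-AML1 day 7 replicate 1 lay between the 2 untreated TEL-AML1 values. The log2 fold change of day 5 over untreated was 1.60 ± 0.55 (SE; adjusted p = 0.225) in TEL-AML1 cells and 2.67 ± 0.55 (SE; adjusted p = 0.0137) in empty vector cells. Col1a2 ran alongside, with 82.2 and 74.3 untreated, 406 and 146 on day 5 and 79.6 and 169 on day 7 in TEL-AML1 cells. With the empty vector it read 78.9 and 76.8 untreated, 547 and 395 on day 5 and 115 and 292 on day 7. Its day 5 change was 1.47 ± 0.48 (SE; adjusted p = 0.202) with TEL-AML1 and 2.36 ± 0.48 (SE; adjusted p = 0.0127) with the empty vector, so that only the empty vector comparison passed the threshold; the difference between the vectors' responses was -0.89 ± 0.67 (SE; adjusted p = 0.741).

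Col6a1 and Col6a2 encode chains of the beaded filaments of type VI collagen. Col6a1 read 106 and 83.0 untreated, 284 and 121 on day 5 and 92.8 and 132 on day 7 in TEL-AML1 cells. It read 93.6 and 83.7 untreated, 335 and 252 on day 5 and 97.0 and 192 on day 7 in empty vector cells, and the day 5 change there was 1.55 ± 0.36 (SE; adjusted p = 0.0189). The treated TEL-AML1 arrays overlapped the untreated ones, since day 7 replicate 1 lay below untreated replicate 1. Col4a1 and Col4a2 encode the chains of type IV collagen, the sheet of basement membranes, and are transcribed in opposite directions from a shared stretch of chromosome 8. Col4a1 read 82.6 and 74.9 untreated, 101 and 101 on day 5 and 81.6 and 83.9 on day 7 in TEL-AML1 cells and 88.2 and 76.1 untreated, 131 and 118 on day 5 and 91.5 and 104 on day 7 in empty vector cells. Its 2 TEL-AML1 day 5 arrays did not differ the way those of type I collagen did. Its day 5 change was 0.31 ± 0.09 (SE; adjusted p = 0.166) with TEL-AML1 and 0.52 ± 0.09 (SE; adjusted p = 0.00748) with the empty vector, and that of Col4a2 was 0.19 ± 0.12 (SE; adjusted p = 0.519) and 0.44 ± 0.12 (SE; adjusted p = 0.0349). Col3a1, Col5a1 and Col5a2, which make the thinner fibrils that mix with type I collagen, rose on empty vector day 5 by 0.61 to 0.73 on the log2 scale. A further probe set of Col5a1, left out by the rule of 1 probe set per gene, showed no such rise. It read 47.1 and 62.4 on empty vector day 5 against 58.7 and 57.4 untreated. In TEL-AML1 cells no collagen gene passed the test at either time (adjusted p 0.166 to 0.963), and on empty vector day 7 none did either (0.137 to 0.601).

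The promoters of 3 of these collagen genes are shown because Col1a2 had one of the larger changes and Col4a1 and Col4a2 share their start region. Each is the RefSeq window of 250 bases before to 50 bases after the gene's start on GRCm38.p6, read 5′ to 3′ on the gene's strand. Capitals mark the letters CCAAT of the CCAAT box, TATAAA of the TATA box and GGGCGG of the GC box, on either strand, so that a match on the other strand shows its reverse complement.
Col1a2 (GRCm38.p6, chr6:4505368-4505667, plus strand): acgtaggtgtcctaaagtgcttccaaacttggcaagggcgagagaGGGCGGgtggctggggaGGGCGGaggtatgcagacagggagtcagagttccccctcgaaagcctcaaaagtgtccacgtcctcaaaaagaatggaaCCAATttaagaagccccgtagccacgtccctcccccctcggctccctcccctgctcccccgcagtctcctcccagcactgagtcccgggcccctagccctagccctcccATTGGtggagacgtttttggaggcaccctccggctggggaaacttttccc
Col4a1 (GRCm38.p6, chr8:11312777-11313076, minus strand): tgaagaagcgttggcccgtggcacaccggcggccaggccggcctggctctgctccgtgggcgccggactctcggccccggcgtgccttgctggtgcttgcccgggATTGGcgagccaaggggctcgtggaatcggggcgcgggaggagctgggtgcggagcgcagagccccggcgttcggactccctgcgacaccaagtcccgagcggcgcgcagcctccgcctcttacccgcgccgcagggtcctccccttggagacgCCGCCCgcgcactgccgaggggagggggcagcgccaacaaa
Col4a2 (GRCm38.p6, chr8:11312555-11312854, plus strand): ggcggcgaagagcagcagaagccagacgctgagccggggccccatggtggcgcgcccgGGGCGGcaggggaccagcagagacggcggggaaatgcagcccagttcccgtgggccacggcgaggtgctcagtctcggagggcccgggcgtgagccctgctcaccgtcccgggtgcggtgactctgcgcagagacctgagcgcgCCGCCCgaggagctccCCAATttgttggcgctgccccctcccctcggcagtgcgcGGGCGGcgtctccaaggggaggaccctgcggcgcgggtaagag
The windows of Col4a1 and Col4a2 share 78 bases on opposite strands. Col1a2 holds 2 matches of the CCAAT box and 2 of the GC box, Col4a1 has 1 of each, and Col4a2 holds 1 CCAAT box and 3 GC boxes. None of these windows holds the TATA box letters, and within a window no match overlaps another. The GC box of Col4a1 and 1 of the 3 GC boxes of Col4a2 are the same bases, within the stretch that the windows share. Of the 40 genes, 27 had such a window, and they had 31 windows in all. The CCAAT box was in 9 of the 31 windows, against 37.4% of all 32851 promoter windows. The TATA box was in 6 of the 31, against 13.6%, and the GC box in 19 of the 31, against 35.7%. Those windows belonged to 9, 6 and 18 genes. A match is only a description of these letters.

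Matrix glycoproteins and proteoglycans held the largest differences. Fn1 encodes fibronectin, which cells assemble into the first fibres of a new matrix. Fn1 read 61.2 and 59.6 untreated, 1909.8 and 560.4 on day 5 and 131 and 755 on day 7 in TEL-AML1 cells. Its empty vector values were 58.8 and 56.4 untreated, 2249 and 1576 on day 5 and 276 and 1313 on day 7. All 8 treated arrays lay above all 4 untreated ones, and the replicates of TEL-AML1 day 7 and empty vector day 7 differed by more than the untreated values themselves. The log2 fold change over untreated was 3.79 ± 0.82 (SE; adjusted p = 0.0541) on day 5 and 2.14 ± 0.82 (SE; adjusted p = 0.15) on day 7 with TEL-AML1. With the empty vector it was 4.69 ± 0.82 (SE; adjusted p = 0.00757) on day 5 and 3.08 ± 0.82 (SE; adjusted p = 0.0324) on day 7. Bgn encodes biglycan, a small proteoglycan that binds collagen. Bgn read 62.2 and 60.7 untreated, 884 and 257 on day 5 and 88.3 and 311 on day 7 in TEL-AML1 cells. Its empty vector values were 64.3 and 58.2 untreated, 1272 and 961 on day 5 and 216 and 712 on day 7. Again no treated array overlapped the untreated ones, and the change with the empty vector was 3.86 ± 0.65 (SE; adjusted p = 0.00647) on day 5 and 2.41 ± 0.65 (SE; adjusted p = 0.0334) on day 7. On TEL-AML1 day 5 it was 2.68 ± 0.65 (SE; adjusted p = 0.0894).

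Sparc encodes osteonectin, a collagen-binding protein of bone and healing tissue. Sparc read 56.2 and 52.1 untreated, 589.8 and 156 on day 5 and 66.0 and 183 on day 7 in TEL-AML1 cells and 55.1 and 53.6 untreated, 803 and 515 on day 5 and 87.4 and 365 on day 7 in empty vector cells. Its 4 untreated values lay within the olfactory receptor background, so the day 5 mean was at least 5.26-fold higher with TEL-AML1 (adjusted p = 0.171) and at least 11.5-fold higher with the empty vector (adjusted p = 0.0134). The thrombospondins are adhesive matrix glycoproteins, and thrombospondin 1 can activate latent TGF-β. Thbs1 read 72.1 and 67.5 untreated, 650.5 and 350.5 on day 5 and 80.8 and 499.8 on day 7 in TEL-AML1 cells. It read 67.5 and 65.6 untreated, 970.0 and 1263 on day 5 and 177 and 948 on day 7 in empty vector cells. Its highest array was empty vector day 5 replicate 2, whereas those of Fn1, Bgn and Sparc were replicate 1. Its day 5 change was 2.53 ± 0.77 (SE; adjusted p = 0.179) with TEL-AML1 and 3.77 ± 0.77 (SE; adjusted p = 0.0134) with the empty vector. Thbs2 read 250.4 and 93.2 on TEL-AML1 day 5 against 63.2 and 62.1 untreated, and 379.7 and 269 on empty vector day 5 against 64 and 60.8 untreated. Aebp1, a collagen-binding protein of connective tissue, and Abi3bp, a matrix protein, rose on empty vector day 5 by 1.46 ± 0.24 (SE; adjusted p = 0.0055) and 1.30 ± 0.23 (SE; adjusted p = 0.00729).

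Lum, Dcn and Postn, which encode lumican, decorin and periostin, were not tested because their mean intensity was under the filter of 60.1. Lum lay within background on all 12 arrays, between 36.6 and 43.7 on the treated ones and between 38.0 and 42.1 on the untreated ones. Dcn read 49.6 and 41.5 on TEL-AML1 day 5 against 42.2 and 41.1 untreated, and 53.8 and 53.0 on empty vector day 5 against 42.5 and 38.9 untreated, all at or under background. Postn read 61.2 and 51.1 on TEL-AML1 day 5 against 46.8 and 46.6 untreated. On empty vector day 5 it read 83.1 and 72.6 against 44.4 and 46.8 untreated, at least 1.39-fold higher, with no test.

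Enzymes that cross-link or cut the matrix, and their inhibitors, numbered 6 genes. Lox encodes lysyl oxidase, which cross-links collagen and elastin. Lox read 43.4 and 44.2 untreated, 189 and 67.5 on day 5 and 44.5 and 79.0 on day 7 in TEL-AML1 cells and 42.5 and 42.1 untreated, 240.0 and 169 on day 5 and 64.4 and 121 on day 7 in empty vector cells. All 8 treated arrays exceeded the untreated ones, though TEL-AML1 day 7 replicate 1, at 44.5, barely passed the highest untreated value of 44.2. Against an untreated level within background the day 5 mean was at least 1.96-fold higher with TEL-AML1 (adjusted p = 0.218) and at least 3.60-fold higher with the empty vector (adjusted p = 0.0127). Mmp2, a gelatinase, read 74.4 and 72.5 untreated, 443 and 143 on day 5 and 77.9 and 176 on day 7 in TEL-AML1 cells. With the empty vector it read 66.4 and 61.0 untreated, 655 and 455 on day 5 and 112 and 335 on day 7, and the day 5 change was 2.82 ± 0.54 (SE; adjusted p = 0.0101). Timp2 encodes an inhibitor that also helps to activate Mmp2. Timp2 read 77.0 and 75.8 untreated, 473 and 157 on day 5 and 173 and 204 on day 7 in TEL-AML1 cells. It read 76.8 and 70.8 untreated, 660.0 and 472 on day 5 and 120.5 and 293 on day 7 with the empty vector. On TEL-AML1 day 7 replicate 1, the treated array with the lowest stroma level, Timp2 was 97.0 units above its untreated mean. Its change on TEL-AML1 day 7 was 1.15 ± 0.44 (SE; adjusted p = 0.15). Loxl1, another lysyl oxidase, rose on empty vector day 5 by 0.56 ± 0.11 (SE; adjusted p = 0.00933), whereas the protease gene Adamts12 gave 0.25 ± 0.09 (SE; adjusted p = 0.0974). Timp3 lay under the filter, with 56.4 and 77.2 on empty vector day 5 against 43.0 and 46.4 untreated.

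Among secreted factors, Cxcl12 read 67.9 and 63.5 untreated, 706 and 221 on day 5 and 75.1 and 267 on day 7 in TEL-AML1 cells. The empty vector values were 58.4 and 57.9 untreated, 835 and 577 on day 5 and 119 and 485 on day 7. All treated arrays lay above all untreated ones, and the day 5 change was 2.34 ± 0.67 (SE; adjusted p = 0.153) with TEL-AML1 and 3.26 ± 0.67 (SE; adjusted p = 0.0135) with the empty vector. Fstl1, a secreted glycoprotein related to follistatin, read 53.0 and 52.7 untreated, 488 and 132 on day 5 and 56.9 and 152 on day 7 in TEL-AML1 cells and 54.6 and 48.7 untreated, 622 and 288 on day 5 and 68.8 and 299 on day 7 in empty vector cells. Its untreated level was within background, and its day 5 mean was at least 4.40-fold higher with TEL-AML1 (adjusted p = 0.22) and at least 7.58-fold higher with the empty vector (adjusted p = 0.0255). Igfbp7, a binding protein for insulin-like growth factors, rose on empty vector day 5 by 2.09 ± 0.47 (SE; adjusted p = 0.0177). It read 503 and 276 there against 77.5 and 73.3 untreated.

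Pdgfra encodes the receptor that marks mesenchymal stromal cells, Vcam1 the adhesion molecule that holds progenitors to stroma, and Cav1 the coat protein of caveolae. Pdgfra read 58.9 and 54.2 untreated, 109 and 67.5 on day 5 and 59.0 and 64.7 on day 7 in TEL-AML1 cells and 53.2 and 52.5 untreated, 143 and 117 on day 5 and 57.7 and 91.7 on day 7 in empty vector cells. Day 5 replicate 1 was the highest array in both vectors. The day 5 change was 0.50 ± 0.20 (SE; adjusted p = 0.278) with TEL-AML1. With the empty vector, whose untreated level was within background, the day 5 mean was at least 2.32-fold higher (adjusted p = 0.00902). Vcam1 was at least 1.66-fold higher on empty vector day 5, with 108 and 80.0 against 45.8 and 46.8 untreated (adjusted p = 0.0262). Cav1 was at least 1.95-fold higher there, with 112 and 105 against 49.4 and 48.2 untreated (adjusted p = 0.00622). The fourth surface gene, Pdgfrb, had another pattern and is described with the genes that were bright in untreated cells.

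Of the contractile genes, Acta2 encodes smooth muscle actin, the mark of myofibroblasts. Acta2 read 61.8 and 57.8 untreated, 238 and 97.2 on day 5 and 62.0 and 89.0 on day 7 in TEL-AML1 cells. On the empty vector side it read 57.1 and 61.6 untreated, 285 and 141 on day 5 and 64 and 148 on day 7. Its day 5 change was 1.16 ± 0.42 (SE; adjusted p = 0.237) with TEL-AML1 and 1.53 ± 0.42 (SE; adjusted p = 0.0351) with the empty vector. Cnn3 encodes a calponin, which binds actin filaments. Cnn3 read 64.8 and 67.4 untreated, 281 and 104 on day 5 and 74.9 and 116 on day 7 in TEL-AML1 cells and 69.6 and 61.7 untreated, 335 and 251 on day 5 and 89.8 and 188 on day 7 in empty vector cells, with no overlap between treated and untreated arrays. Its day 5 change was 1.91 ± 0.39 (SE; adjusted p = 0.0135) with the empty vector. Cald1, caldesmon, which regulates actin and myosin, changed by 1.59 ± 0.35 (SE; adjusted p = 0.0161) there. Tpm2, a tropomyosin, gave 0.30 ± 0.12 (SE; adjusted p = 0.122) and did not pass. Tagln, transgelin, stayed under the filter, with 60.3 and 51.1 on TEL-AML1 day 5 against 52.8 and 51.4 untreated, and 59.5 and 58.9 on empty vector day 5 against 53.8 and 53.0 untreated.

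Counted together, 34 of the 39 genes were tested, and 5 lay under the filter (Lum, Dcn, Postn, Timp3 and Tagln). Since 10 of the 34 had an untreated mean below the filter and entered through the treated arrays, their share called is no measure of the whole list. The list was also chosen with earlier results of these data known. Its counts here and below, set against the share of all genes, are therefore a description and no independent support. On TEL-AML1 day 5 limma called 0 of 34, against 1.60% of all tested genes called either way, although all 34 differences were positive and 30 had an unadjusted p below 0.05. The smallest adjusted p was that of Fn1, at 0.0541. The median log2 fold change was 0.77, against 0.0097 over all tested genes. Among all 12337 tested genes, 6532 differences were positive and 1828 had an unadjusted p below 0.05 (limma). Without TEL-AML1 day 5 replicate 2, the lower array of its group, the test called 12 of the 34. Here and below, leaving out an array leaves 1 in its group, which is then assumed to vary like the other groups. The share of all tested genes called in those refits is not given here, so such a count does not show whether these genes alone moved. On TEL-AML1 day 7, 1 gene was called higher, Igfbp4, against 4.77% of all tested genes called higher and 7.85% called either way, and the median was 0.23. Leaving out any of the 4 arrays of that comparison gave 0 calls.

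On empty vector day 5, 30 of the 34 tested genes rose, against 8.45% of all tested genes called higher and 15.6% called either way. For the reasons given above, that excess is no independent support. The median log2 fold change was 1.49, against -0.0078 over all tested genes, and the adjusted p of the called genes ran from 0.0055 to 0.0351. The 4 that did not pass were Igfbp4, Pdgfrb, Adamts12 and Tpm2. This count depended on single arrays: it was 6 without empty vector untreated replicate 1, 0 without empty vector untreated replicate 2, 12 without empty vector day 5 replicate 1 and 27 without empty vector day 5 replicate 2. On empty vector day 7, 2 rose, Fn1 and Bgn, against 6.29% called higher and 15.5% called either way among all tested genes. There the median was 0.60, and 33 of 34 differences were positive, against 6399 of all 12337 tested genes. Without empty vector day 7 replicate 1 the count was 4, and it was 0 without any 1 of the other 3 arrays. Both times of a vector are set against the same untreated arrays.

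**Figure D3:**
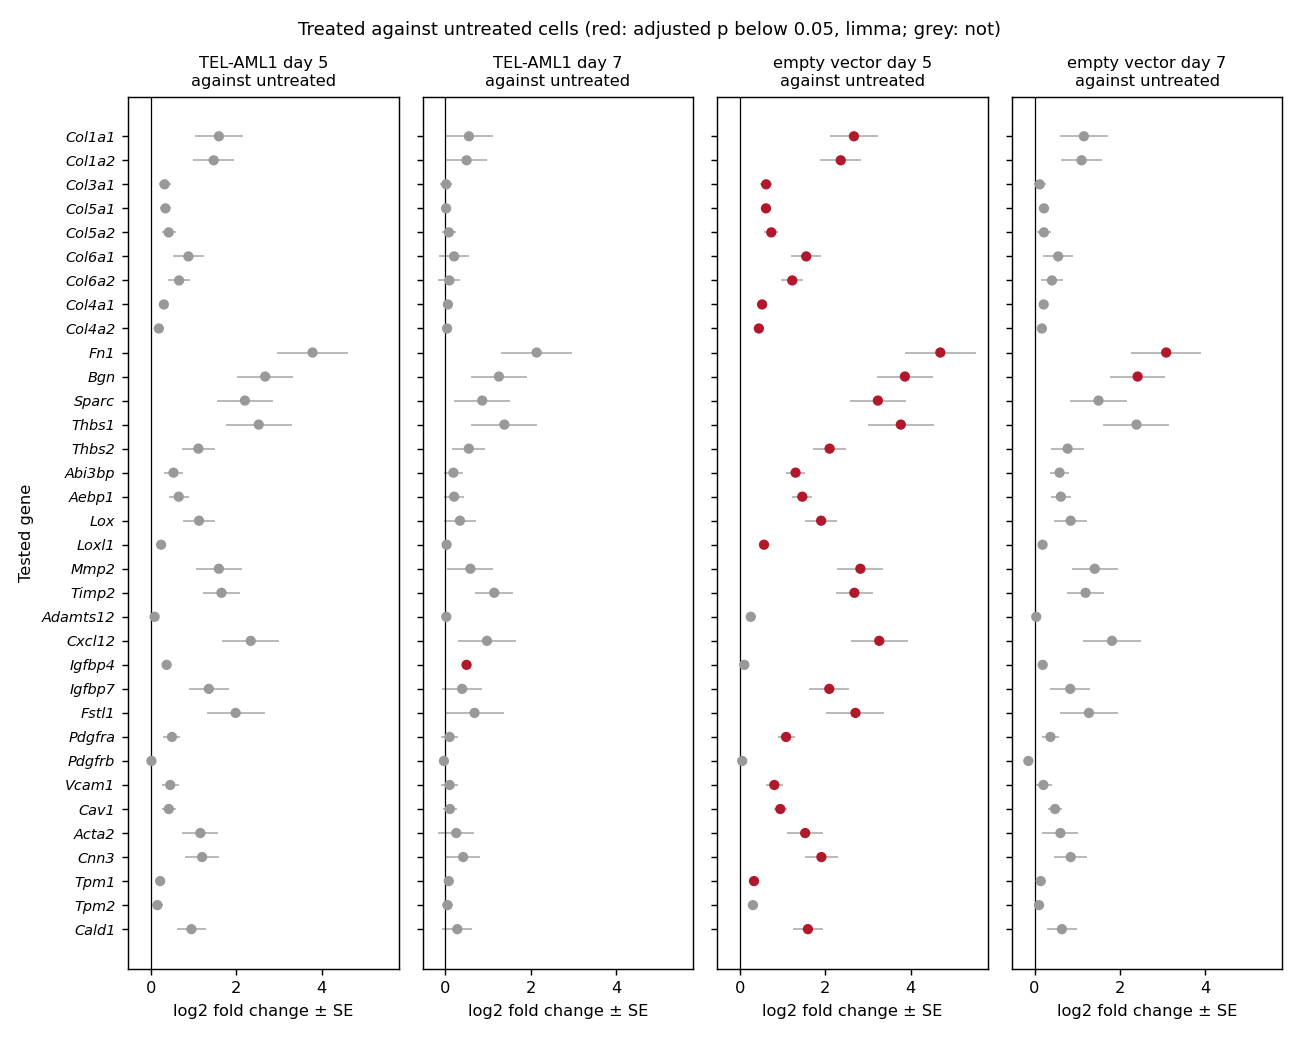
Log2 fold change on the log2(intensity + 16) scale with its standard error (limma, 2 arrays a group) of the 34 tested genes for TEL-AML1 and empty vector, day 5 and day 7 against untreated. Red points passed an adjusted p of 0.05, which were 0 and 1 with TEL-AML1 and 30 and 2 with the empty vector.

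By overlap alone, 13 of the 39 genes had all 8 treated arrays above all 4 untreated ones, against 4.07% of all named genes. These were Acta2, Bgn, Cnn3, Cxcl12, Fn1, Fstl1, Lox, Loxl1, Mmp2, Sparc, Thbs1, Thbs2 and Timp2. Within TEL-AML1, 16 of 39 separated in this way, against 14.2% of all named genes, and within the empty vector 32 of 39, against 16.6%. Day 7 against day 5 gave 0 calls among these genes in either vector, as it did among all genes (0.00% called). In TEL-AML1 cells 33 of 34 day 7 values lay below those of day 5, with a median of -0.54 and 2 genes with an unadjusted p below 0.05. In empty vector cells 33 of 34 did, with a median of -0.88 and 25 genes below 0.05. Among all 12337 tested genes, 6683 day 7 values lay below day 5 with TEL-AML1 and 5919 with the empty vector. An unadjusted p below 0.05 (limma) was reached by 987 and 796 of the 12337.

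Gains over untreated cells were compared between genes. For 22 genes that gained at least 100 units on empty vector day 5 replicate 1, the gain on each other treated array was expressed as a percentage of the gain there. The median was 70.7% on TEL-AML1 day 5 replicate 1 and 13.8% on replicate 2. It was 1.10% on TEL-AML1 day 7 replicate 1 and 18.8% on replicate 2. On the empty vector arrays it was 66.2% on day 5 replicate 2, 8.07% on day 7 replicate 1 and 42.7% on day 7 replicate 2. The quartiles were 65.0% and 76.9% on TEL-AML1 day 5 replicate 1, 11.9% and 16.5% on day 5 replicate 2 and 17.1% and 23.0% on day 7 replicate 2 of that vector. On empty vector day 5 replicate 2 they were 59.3% and 68.6%, and on day 7 replicate 2 they were 39.5% and 52.4%. The genes spread more, relative to the median, on the 2 arrays with the smallest gains, with quartiles of 0.396% and 2.49% on TEL-AML1 day 7 replicate 1 and of 5.12% and 10.9% on empty vector day 7 replicate 1.

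Single genes lay far from these medians. Thbs1 gained 132% on empty vector day 5 replicate 2 and 97.6% on day 7 replicate 2 of the same vector, well above the medians there. Acta2 gained 36.1% and Fstl1 41.4% on empty vector day 5 replicate 2, below the median. Aebp1 gained 23.1% on empty vector day 7 replicate 1. Timp2 gained 16.6% on TEL-AML1 day 7 replicate 1, where Lox gained 0.35% and Col1a1 -0.35%. Tpm1 gained 52.2% on TEL-AML1 day 5 replicate 2. Igfbp4 stood apart from the rest, with gains from 26.2% on empty vector day 5 replicate 2 to 374% on TEL-AML1 day 7 replicate 2. The 22 genes were chosen for their gain on 1 array, and the percentages are a description with no test.

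**Figure D4:**
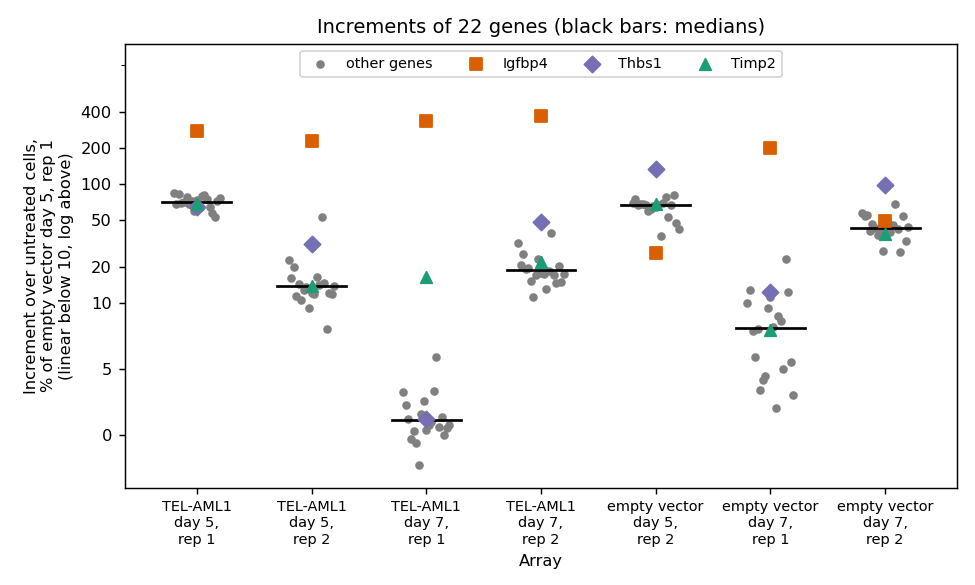
Gain in intensity over the same vector's untreated mean, as a percentage of the gain on empty vector day 5 replicate 1, for 22 genes on the other 7 treated arrays (grey points, genes; black bars, medians; axis linear below 10 and logarithmic above). Medians run from 1.10% on TEL-AML1 day 7 replicate 1 to 70.7% on TEL-AML1 day 5 replicate 1, and Igfbp4 lies between 200.5% and 374% on 5 of these arrays.

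Which of these genes were bright without treatment was read from the 4 untreated arrays. By the olfactory receptor background, 26 of 39 genes lay above it on all 4, but so did 63.4% of all named genes, so that this line separates little. With the 99th percentile of the same probe sets 12 of 39 were above, against 51.4% of all named genes. Against the 60th percentile of all probe sets only Igfbp4, Pdgfrb and Tpm1 were, 3 of 39 against 43.7% of all named genes. The other 36 genes lay between 38.0 and 105.8 on the untreated arrays. Those with no untreated array above the olfactory receptor line were Cav1, Dcn, Fstl1, Lox, Lum, Postn, Sparc, Tagln, Timp3 and Vcam1. Only 2 of these 10 were above it on all 8 treated arrays, 5.13% of the 39 genes, against 0.106% of all named genes.

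Igfbp4 encodes a secreted protein that binds insulin-like growth factors and limits their action. Its promoter is shown because it is the one member of the list called in TEL-AML1 cells, and its window, unlike those of the collagens above, holds the TATA box letters (capitals).
Igfbp4 (GRCm38.p6, chr11:99040994-99041293, plus strand): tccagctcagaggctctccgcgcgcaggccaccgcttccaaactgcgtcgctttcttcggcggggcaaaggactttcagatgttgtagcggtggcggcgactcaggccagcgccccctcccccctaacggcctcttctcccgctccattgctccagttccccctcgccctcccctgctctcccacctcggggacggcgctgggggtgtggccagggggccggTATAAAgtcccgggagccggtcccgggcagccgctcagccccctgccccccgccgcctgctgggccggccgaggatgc
Igfbp4 read 1621 and 1622 untreated, 2154 and 2056 on day 5 and 2260.5 and 2331 on day 7 in TEL-AML1 cells. In empty vector cells it read 1741 and 1525 untreated, 1823 and 1683 on day 5 and 2014 and 1725 on day 7. In TEL-AML1 cells all treated arrays lay above both untreated ones, and in empty vector cells the groups overlapped. The change was 0.37 ± 0.09 (SE; adjusted p = 0.103) on day 5 and 0.50 ± 0.09 (SE; adjusted p = 0.0132) on day 7 with TEL-AML1. With the empty vector it was 0.10 ± 0.09 (SE; adjusted p = 0.538) on day 5 and 0.19 ± 0.09 (SE; adjusted p = 0.198) on day 7. The vectors' day 7 responses differed by 0.31 ± 0.13 (SE; adjusted p = 0.544), which did not pass. The day 7 call had an adjusted p between 0.00543 and 0.103 over the alternatives, and it ended when any 1 of its 4 arrays was left out. Unlike the collagens, Igfbp4 did not follow the stroma level: it read 2260.5 and 2331 on the 2 TEL-AML1 day 7 arrays, where Fn1 read 131 and 755.

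Pdgfrb encodes the receptor for platelet-derived growth factor B, a marker of pericytes. Pdgfrb read 1261 and 1169.6 untreated, 1241 and 1217 on day 5 and 1066 and 1323 on day 7 in TEL-AML1 cells. Its values with the empty vector were 917 and 891 untreated, 931 and 946 on day 5 and 776 and 859 on day 7. All 6 TEL-AML1 arrays lay above all 6 empty vector arrays, which held for no other gene of the list and for 2.45% of all named genes. TEL-AML1 over empty vector was 0.42 ± 0.10 (SE; adjusted p = 0.0261) in untreated cells, 0.38 ± 0.10 (SE; adjusted p = 0.0471) on day 5 and 0.53 ± 0.10 (SE; adjusted p = 0.00746) on day 7. Blocking on the replicate number within each condition, these were 0.42 ± 0.07 (SE; adjusted p = 0.00667), 0.38 ± 0.07 (SE; adjusted p = 0.0105) and 0.53 ± 0.07 (SE; adjusted p = 0.00217). The untreated difference lost its call when any 1 of its 4 arrays was left out, with adjusted p from 0.0918 to 0.206. On day 5 the adjusted p ran from 0.0105 to 0.156 over the alternatives and on day 7 from 0.00217 to 0.114. Treatment gave no call for Pdgfrb, at 0.02 ± 0.10 (SE; adjusted p = 0.971) on TEL-AML1 day 5 and 0.05 ± 0.10 (SE; adjusted p = 0.797) on empty vector day 5. It was not measured here whether the receptor protein differed.

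Tpm1 encodes a tropomyosin that stiffens actin filaments in many cell types. Tpm1 read 404 and 411 untreated, 490.2 and 465 on day 5 and 414 and 450.2 on day 7 in TEL-AML1 cells. The empty vector cells read 369.6 and 363 untreated, 477 and 453 on day 5 and 376 and 441 on day 7. Day 5 was the highest time in both vectors. The day 5 change was 0.22 ± 0.09 (SE; adjusted p = 0.267) with TEL-AML1 and 0.33 ± 0.09 (SE; adjusted p = 0.0303) with the empty vector. For Tpm1 the part of stroma in that gain was not tested.

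**Figure D5:**
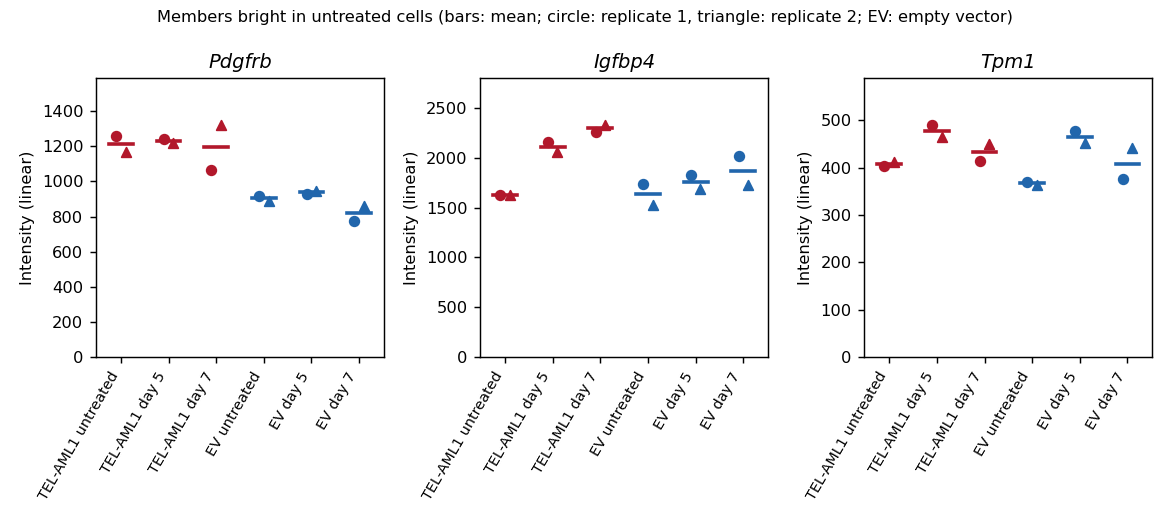
Linear intensity of Pdgfrb, Igfbp4 and Tpm1, which lay above the 60th percentile of all probe sets on all 4 untreated arrays, in 6 groups of 2 arrays (circle, replicate 1; triangle, replicate 2; bar, mean; red, TEL-AML1; blue, empty vector). Pdgfrb is higher on all 6 TEL-AML1 arrays, and Igfbp4 on the 4 treated TEL-AML1 arrays than on the untreated ones.

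TEL-AML1 set against the empty vector at one time gave few calls without the block. In untreated cells 1 of 34 genes was called higher (Pdgfrb), against 8.90% of all tested genes called either way and 2.74% called higher, and the median difference of the 34 was 0.041. On day 5 it was again 1, against 7.32% and 3.04%, with a median of -0.60 and 31 of 34 differences negative (6215 of all 12337). On day 7 it was 1, against 11.3% and 5.28%, with a median of -0.27 and 31 of 34 negative (6938 of all 12337). Without TEL-AML1 day 5 replicate 1 the day 5 test called 6 genes, all lower, and without any 1 of the other 3 arrays it called 0. Without empty vector day 7 replicate 1 the day 7 test called 3, and without TEL-AML1 day 7 replicate 2 it called 0. The tests of the difference between the vectors' responses called 0 of 34 at day 5, with 3 genes at an unadjusted p below 0.05, and 0 at day 7, with 1 gene (limma; 0.0324% and 0.0811% of all tested genes were called). With the replicate number blocked within each condition they again called 0 at both times, with 25 genes at an unadjusted p below 0.05 at day 5 and 9 at day 7. Without the block, 949 and 1117 of all 12337 tested genes had such a p (limma). The share of all genes with the block is not given here.

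Arrays of the same number and condition deviated together in the 2 vectors, with correlations of 0.376 to 0.543 over genes, and the comparison within numbers gave another count. The labels do not say that a number pairs arrays of the 2 vectors, so this block was chosen from these same data. It also leaves fewer residual degrees of freedom than the fit without it. When the replicate number was blocked within each condition, 23 of 34 genes were lower in TEL-AML1 on day 5, against 8.71% of all tested genes called lower, and Pdgfrb was higher, against 6.18% called higher. Some of the lower genes, such as Sparc, Lox and Cav1, passed the filter only through the treated arrays. The share called lower is therefore no measure of the whole list. The lower genes included Fn1 at -0.85 ± 0.23 (SE; adjusted p = 0.0478), Thbs1 at -1.18 ± 0.23 (SE; adjusted p = 0.0148), Mmp2 at -1.06 ± 0.21 (SE; adjusted p = 0.0152) and Col1a1 at -1.02 ± 0.22 (SE; adjusted p = 0.022). Thbs2 and Cav1 gave -0.98 ± 0.16 (SE; adjusted p = 0.00786) and -0.47 ± 0.08 (SE; adjusted p = 0.00712). Acta2, Col6a1, Vcam1, Col3a1 and Tpm1 were among those without a call, with -0.36 ± 0.14 (SE; adjusted p = 0.122) for Acta2. On day 7 the block left 4 genes lower, against 9.43% called lower: Bgn at -1.15 ± 0.25 (SE; adjusted p = 0.0166), Fn1 at -0.89 ± 0.23 (SE; adjusted p = 0.036), Thbs1 at -0.95 ± 0.23 (SE; adjusted p = 0.0278) and Cav1 at -0.32 ± 0.08 (SE; adjusted p = 0.0256). Igfbp4 joined Pdgfrb as higher there, at 0.30 ± 0.08 (SE; adjusted p = 0.0477), against 8.53% of all tested genes called higher. In untreated cells the block again called Pdgfrb alone, against 4.06% called higher.

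Pair by pair, the matrix genes were lower in TEL-AML1 than on the empty vector array of the same number. On day 5, 35 of 39 were lower for replicate 1 and 36 of 39 for replicate 2, against 54.3% and 53.6% of all named genes. On day 7 it was 30 and 35 of 39, against 57.0% and 57.2%. In untreated cells only 9 and 14 of 39 were lower, against 49.8% and 53.1%. For the 22 genes with large gains, the TEL-AML1 gain was a median of 70.7% and 21.8% of the empty vector gain on day 5, and 13.9% and 43.7% on day 7. Those genes were chosen for their gain on an empty vector array, so these percentages are no test of a lower gain with TEL-AML1.

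Other genes of matrix and contraction formed a list of 92 with a probe set. Of 81 tested, 2 rose and 1 fell on TEL-AML1 day 5, and 3 rose and 1 fell on TEL-AML1 day 7, against 1.60% and 7.85% of all tested genes called either way. On empty vector day 5, 43 rose and 4 fell, and on day 7, 5 rose and 4 fell, against 15.6% and 15.5%. Ccn1 and Nid1, a matricellular protein and the basement membrane linker nidogen, gave 2.63 ± 0.54 (SE; adjusted p = 0.0136) and 2.35 ± 0.45 (SE; adjusted p = 0.0102) on empty vector day 5. Ogn, the proteoglycan osteoglycin, gave 2.12 ± 0.49 (SE; adjusted p = 0.0194). Ccn1, Nid1 and Ogn lay under the filter of 60.1 on every untreated array and were tested only through the treated ones. Their tests, and the share called in a list that holds such genes, are therefore no independent support. Angpt1, the ligand of the receptor Tie2, rose in all 4 comparisons, by 1.05 ± 0.18 (SE; adjusted p = 0.0183) on TEL-AML1 day 5 and 1.56 ± 0.18 (SE; adjusted p = 0.000853) on day 7, and by 1.33 ± 0.18 (SE; adjusted p = 0.00244) on empty vector day 5 and 1.09 ± 0.18 (SE; adjusted p = 0.0056) on day 7. Angpt1 read 629 and 628 on TEL-AML1 day 7 against 194 and 210.4 untreated, and so was high on an array with little matrix RNA. Il6, a cytokine of stroma and of blood cells, fell in all 4 comparisons, by -0.77 ± 0.16 (SE; adjusted p = 0.049) and -0.99 ± 0.16 (SE; adjusted p = 0.00636) with TEL-AML1 at day 5 and day 7. Lmna, which encodes lamins A and C of the nuclear envelope, gave -0.61 ± 0.13 (SE; adjusted p = 0.0147) on empty vector day 5.

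Adipocyte genes were counted because OP9 cells can turn into fat cells. Of 13 adipocyte genes with a probe set, 6 lay above background on all 8 treated arrays and 4 on all 4 untreated ones. Of all named genes, 61.9% and 63.4% did. The summed intensity of the 13 was 987 to 1730 on the treated arrays and 905 to 1208 on the untreated ones. Lpl, lipoprotein lipase, read 49.7 and 48.9 untreated, 224 and 104 on day 5 and 55.5 and 98.9 on day 7 in TEL-AML1 cells and 52.1 and 56.8 untreated, 282 and 165 on day 5 and 55.3 and 172 on day 7 in empty vector cells. Pparg, the regulator of fat cells, read 65.8 and 53.5 untreated, 192 and 90.8 on day 5 and 58.8 and 84.0 on day 7 in TEL-AML1 cells and 67.4 and 56.0 untreated, 269.7 and 168 on day 5 and 68.8 and 147 on day 7 in empty vector cells. Of 9 adipocyte genes tested, 1 rose on TEL-AML1 day 5 and 0 on day 7, against 1.60% and 7.85% of all tested genes called either way. In empty vector cells 5 rose on day 5, and 1 rose and 1 fell on day 7, against 15.6% and 15.5%. Fabp5, a fatty acid binding protein that other cells make too, was the gene that rose on TEL-AML1 day 5, by 0.59 ± 0.12 (SE; adjusted p = 0.037), and the one that fell on empty vector day 7, by -0.64 ± 0.12 (SE; adjusted p = 0.00785). Lpl and Pparg were high on the arrays with a high stroma level, and rose on empty vector day 5 by 1.72 ± 0.44 (SE; adjusted p = 0.0279) for Lpl and 1.56 ± 0.35 (SE; adjusted p = 0.0183) for Pparg. Lpl lay under the filter of 60.1 on every untreated array and was tested only through the treated ones, so its test is no independent support. The part of Lpl and Pparg in the matrix values was not tested.

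Endothelial and macrophage genes were counted likewise. Of 12 endothelial genes, 6 lay above background on all 8 treated arrays and 6 on all 4 untreated ones, against 61.9% and 63.4% of all named genes. The summed intensity of the 12 was 1446 to 1757 on the treated and 1488 to 1616 on the untreated arrays. None of the 7 endothelial genes tested was called against untreated cells in any of the 4 comparisons (limma), with 0, 1, 0 and 2 at an unadjusted p below 0.05 on TEL-AML1 day 5 and day 7 and empty vector day 5 and day 7. Of 11 macrophage genes, 6 lay above background on all treated and 5 on all untreated arrays, against the same 61.9% and 63.4%. The sums of the 11 were 811 to 1055 and 946 to 1055. Of 6 macrophage genes tested, Cd68 alone was called against untreated cells, and it was lower in all 4 comparisons, by -0.40 ± 0.08 (SE; adjusted p = 0.0329) on TEL-AML1 day 5. Lyz2, the lysozyme of myeloid cells, gave 0.52 ± 0.22 (SE; adjusted p = 0.3) and 0.72 ± 0.22 (SE; adjusted p = 0.0751) on TEL-AML1 day 5 and day 7, and 0.11 ± 0.22 (SE; adjusted p = 0.811) and 0.28 ± 0.22 (SE; adjusted p = 0.419) at those times with the empty vector. Of the 20 progenitor genes, 0 were called on TEL-AML1 day 5 and 2 rose on day 7, against 1.60% and 7.85% of all tested genes. In empty vector cells 1 rose and 5 fell on day 5 and 3 rose and 4 fell on day 7, against 15.6% and 15.5%. Vav1, a signalling protein of blood cells, gave -0.22 ± 0.07 (SE; adjusted p = 0.205) on TEL-AML1 day 5 and -0.53 ± 0.07 (SE; adjusted p = 0.00219) on empty vector day 5, and Gfi1b gave 0.58 ± 0.16 (SE; adjusted p = 0.138) and 0.59 ± 0.16 (SE; adjusted p = 0.0328).

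Outside these lists, 5 genes lay at or under background on all 4 untreated arrays, above it on all 8 treated ones and spanned at least 2 log2 units over the treated arrays. Anxa2, a membrane-binding annexin, correlated with the stroma level at r = 0.997 over the 8 treated arrays, Ephx1 at 0.970, Fgf7 at 0.953, Sgk1 at 0.759 and Cmpk2 at -0.359, as a description with no test. The 8 arrays include pairs from the same group. Anxa2 read 52.7 and 49.2 untreated, 348 and 122 on day 5 and 62.9 and 123 on day 7 in TEL-AML1 cells and 49.1 and 45.5 untreated, 468 and 295 on day 5 and 79.9 and 237 on day 7 in empty vector cells. Fgf7, a growth factor of mesenchymal cells that acts on epithelium, read 311 and 85.6 on TEL-AML1 day 5 against 55.5 and 52.1 untreated, and 475 and 178 on empty vector day 5 against 55.1 and 49.8 untreated. Cmpk2, a mitochondrial nucleotide kinase, ran otherwise, with 650.0 and 348 on TEL-AML1 day 7 and 70.8 and 63.2 on empty vector day 7. It was high on TEL-AML1 day 7 replicate 1, the array with the lowest stroma level of the 8.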

How the data were processed

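Total RNA of EML1 cells was measured on 12 Affymetrix arrays, 2 for each of 6 groups, with groups and replicate numbers taken from the sample titles. The authors deposited 1 linear intensity per probe set and array for 35556 probe sets, with the background correction, probe summary and normalization not given in the sources used here. Per the labels' protocols, cRNA was made from 5 μg of TRIzol-extracted RNA. The deposited intensity values were kept, and arrays limit the precision by their number.

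The platform table named 21218 probe sets by 1 gene, listed several genes for 1881 and did not list 12457. Of several probe sets for a gene the one with the highest mean log2 intensity was used. Genes with a mean intensity above the 40th percentile of all probe sets (60.1) were tested on log2(intensity + 16) with lmFit and eBayes of limma 3.58.1 in R 4.3.3, with 6 group means over all 12 arrays, 6 residual and 4.22 prior degrees of freedom. Benjamini-Hochberg adjustment covered 12337 genes. The fit was tested on simulated data. Descriptions used Python 3.11.15. Promoter sequences are RefSeq's, on GRCm38.p6.

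All members of the list may be named. From each other list, the 4 genes with the highest and 2 with the lowest mean change were eligible. Ptprc, Kit and Spi1 are named only as markers. Genes outside the lists were ranked by correlation with the stroma level among those under background untreated and above it when treated. The members, the lists and this rule were chosen with earlier results of these data known.

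Replicate numbers come from the titles. Deviations of same-numbered arrays of the 2 vectors within a condition correlated at 0.376 to 0.543 over genes in all 3 pairs, so the numbers were taken to pair the arrays within a condition. Between conditions the 15 correlations, these included, ran down to -0.241. Alternatives tried were another normalization, filter, pseudocount, probe set rule, set of arrays, variance prior and replicate block, and each replicate left out.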

Additional observations from a re-analysis of the deposited data

Results flagged for a closer look

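A further probe set of Cnn3, left out by the rule of 1 probe set per gene, was higher on all 8 treated than on all 4 untreated arrays, the lowest treated value being 1.26 times the highest untreated one (1.263). It read 47.8 and 48.0 untreated, 174 and 69.7 on day 5 and 61.5 and 90.5 on day 7 in TEL-AML1 cells. In empty vector cells it read 48.7 and 43.2 untreated, 206 and 116 on day 5 and 66.8 and 115 on day 7. Its order of arrays was close to that of the probe set used.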

How the results depend on the processing

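Of 215 recomputed summaries, 169 stayed within 1.5 times the count or within the spread between replicates, and 46 moved. The 36 calls of single genes were kept in 384 and ended in 114 of 498 recomputations, with 0 reversed. On empty vector day 7 the count of 2 became 0 without a filter or with a trended and robust variance prior, and 1 with a pseudocount of 64 or only the compared groups. On TEL-AML1 day 5 the count of 0 became 1 with a filter at the 60th percentile or only the compared groups. On TEL-AML1 day 7 it became 2 with only the compared groups. For TEL-AML1 against the empty vector on day 5 it became 0 with quantile normalization, median centring, no filter, a pseudocount of 1, only the compared groups or a replicate block over all groups, and 24 with the replicate block within each condition. On day 7 it became 0 with only the compared groups, 2 with the trended and robust prior and 6 with the replicate block within each condition, which changed no other call between the vectors. Leaving out 1 replicate gave 0 to 27 calls on empty vector day 5, 0 to 4 on empty vector day 7, 0 to 12 on TEL-AML1 day 5 and 0 to 0 on TEL-AML1 day 7. For TEL-AML1 against the empty vector it gave 0 to 0 in untreated cells, 0 to 6 on day 5 and 0 to 3 on day 7. With a pseudocount of 64 the stroma level was 7.29 and 7.70 on TEL-AML1 day 7, 8.47 and 8.21 on empty vector day 5, and 7.42 on empty vector day 7 replicate 1. Untreated genes above background numbered 12 and 3 with the 99th percentile of olfactory receptor probe sets and the 60th percentile of all probe sets. The causes were not tested beyond the fewer arrays or other filter that each alternative uses. Signal near background limits the fold of dim genes, and 2 arrays a group limit every test.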
